A study of Mus musculus with 8 samples.

Results

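The genes for the major proteins of mouse milk were examined in iWAT, the inguinal white fat that lies under the skin of the groin. The 8 genes were listed by name out of 54532 genes in the deposited table: the 5 casein genes Csn1s1, Csn1s2a, Csn1s2b, Csn2 and Csn3, and Wap, Lalba and Ltf. They were chosen by their FPKM in these libraries, WT against KLF10AKO, so their differences between the groups are described here and not tested. All mice were male and HFD-fed, that is, kept on a high-fat diet. The 8 libraries came from 4 wild type (WT) samples and 4 samples labelled KLF10AKO, in which the transcription factor KLF10 was knocked out in adipocytes. The labels give no age, strain, Cre driver or animal for each library. P-values therefore measure the spread between these libraries, which may be technical.

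Caseins are secreted phosphoproteins that carry calcium phosphate in milk as micelles. They are made, with whey acidic protein and alpha-lactalbumin, by the luminal cells of the mammary gland, which in female mice grows within the inguinal fat pad. In those cells prolactin acts through its receptor, the kinase JAK2 and the factor STAT5, together with glucocorticoid hormone, to switch on the milk protein genes. Csn1s1, Csn1s2a, Csn1s2b and Csn2 encode calcium-sensitive caseins and Csn3 encodes kappa-casein, which keeps the micelle in solution. Wap encodes the main whey protein of mouse milk, Lalba the subunit that turns a galactosyltransferase into lactose synthase, and Ltf lactoferrin, an iron-binding protein that is also stored in neutrophil granules.

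The 5 casein genes lie in a cluster on chromosome 5 of mm10, between positions 87666208 and 87932665, a stretch of 266 kb. Within it Csn1s1 runs from 87666208 to 87682578, Csn2 from 87692624 to 87699630, Csn1s2a from 87774567 to 87788797, Csn1s2b from 87808082 to 87824426 and Csn3 from 87925579 to 87932665. Csn2 is on the minus strand and the other 4 caseins are on the plus strand. Wap lies on chromosome 11 from 6635482 to 6638637 (minus strand), Lalba on chromosome 15 from 98480400 to 98482721 (minus strand) and Ltf on chromosome 9 from 111019271 to 111042767 (plus strand). No exon of the 8 genes overlaps an exon of another gene in the GENCODE M21 annotation.

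The first 45 coding bases are shown for each member, because they separate the calcium-sensitive caseins from the other milk proteins and show how distinct the sequences are that the reads were assigned to. They were read from the GENCODE M21 transcripts, 5′ to 3′, and capitals mark bases identical to Csn1s1 at the same position.
Csn1s1: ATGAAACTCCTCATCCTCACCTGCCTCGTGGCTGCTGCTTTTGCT
Csn2: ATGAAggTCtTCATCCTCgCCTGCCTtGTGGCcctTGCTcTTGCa
Csn1s2a: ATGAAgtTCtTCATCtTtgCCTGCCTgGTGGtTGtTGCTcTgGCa
Csn1s2b: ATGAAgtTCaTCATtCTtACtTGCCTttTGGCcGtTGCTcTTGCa
Csn3: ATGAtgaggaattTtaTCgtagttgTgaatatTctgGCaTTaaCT
Wap: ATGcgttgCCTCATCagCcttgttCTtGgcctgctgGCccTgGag
Lalba: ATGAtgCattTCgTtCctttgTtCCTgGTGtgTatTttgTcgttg
Ltf: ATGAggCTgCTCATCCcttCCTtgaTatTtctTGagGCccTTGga
Csn2 shared 35 of these bases with Csn1s1, and Csn1s2a and Csn1s2b shared 33 each. Csn3 shared 15, Wap 18, Lalba 19 and Ltf 25. Over the whole spliced transcripts the longest identical run between any 2 members was 15 bases, between Csn1s2a and Csn2.

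The 250 bases upstream of the RefSeq start site (GRCm38.p6) were searched on both strands for motifs of known casein gene regulators. Promoters were listed for 6 of the 8 members. The palindrome TTCNNNGAA, which STAT5 dimers bind, was found in 2 of the 6 and in 7.01% of 32817 promoters of the same length. Both matches were in caseins that are neighbours in the cluster and lie on opposite strands. They are shown in capitals within 30 bases, written along the strand of the gene.
Csn1s1, chr5:87666098-87666127, plus strand: tttgtaacaaTTCTTAGAAtttatgtaaaa
Csn2, chr5:87699499-87699528, minus strand: tcacgtagacTTCTTGGAAttgaagggact
The Csn1s1 match covered bases 100 to 92 before the start site and the Csn2 match bases 93 to 85. GENCODE M21 starts Csn2 further upstream than RefSeq, so 205 of the 250 bases of the Csn2 window, the match included, lie in exons of Csn2 in that annotation. The nuclear factor I motif TTGGC was found upstream of Csn2, Wap and Lalba, 3 of 6, and in 41.5% of all promoters. The TATA box TATAAA was found in 0 of 6 and in 12.4% of all promoters. The motifs TTCNNNGAA, TTGGC and TATAAA share no overlapping match in these windows. The upstream windows of Csn1s1 and Wap are given whole, as a casein and the main whey protein whose windows hold no annotated exon. Capitals mark the STAT5 palindrome, and the Wap window holds none.
Csn1s1, chr5:87665958-87666207, plus strand: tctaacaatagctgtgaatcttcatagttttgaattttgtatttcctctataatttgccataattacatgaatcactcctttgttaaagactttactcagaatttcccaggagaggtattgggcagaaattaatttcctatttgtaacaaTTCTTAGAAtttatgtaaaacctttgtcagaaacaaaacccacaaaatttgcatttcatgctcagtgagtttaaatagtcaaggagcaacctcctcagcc
Wap, chr11:6638650-6638899, minus strand: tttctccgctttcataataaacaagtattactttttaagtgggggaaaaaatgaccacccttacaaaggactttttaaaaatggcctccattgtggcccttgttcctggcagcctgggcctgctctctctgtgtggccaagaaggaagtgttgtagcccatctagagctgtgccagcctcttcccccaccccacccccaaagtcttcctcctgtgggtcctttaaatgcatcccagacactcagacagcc

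Before the milk genes, the libraries themselves were checked. In order of replicate number, Klf10 had 16.7, 18.2, 16.7 and 21.1 FPKM in WT but 9.39, 9.68, 9.75 and 9.59 in KLF10AKO. FPKM is the authors' number of fragments per kilobase of gene length, divided by a library size they had scaled. Companion genes were compared with limma on log2(FPKM + 0.5), over the 16012 genes with a mean of at least 0.5 FPKM, with p-values adjusted by Benjamini-Hochberg and a threshold of 0.05. Of these genes 39.4% rose and 34.9% fell in KLF10AKO, with a median log2 change of 0.05. Klf10 fell by 0.88 on the log2 scale (adjusted p = 8.96e-06 by limma). All 12 adipocyte markers fell, and their sum was 15126 to 17267 FPKM in WT and 5104 to 6428 in KLF10AKO. All 10 B cell markers rose, with sums of 4.56 to 5.64 FPKM in WT and 1600 to 2347 in KLF10AKO. The B cell list, and the skeletal muscle list that follows, were taken because an earlier look at these data showed them to separate libraries. Their counts are therefore no independent evidence. Skeletal muscle genes summed to 166 to 219 FPKM in WT, to 35.0 in KLF10AKO replicate 4 and up to 10053 in replicate 3. Of 9 muscle genes tested 8 rose, but 0 with voom on whole reads, and with KLF10AKO replicate 4 alone in its group 4 rose and 3 fell. The part of these tissue differences in the milk protein results was not tested. The Y-linked genes Ddx3y, Uty, Kdm5d and Eif2s3y were present in all 8 libraries, and Xist had between 1 and 7 reads in each.

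Reads of the caseins and Wap were present in every WT library and nearly absent from the KLF10AKO libraries, while Lalba and Ltf were near the limit of detection in both groups. In all, 1082 reads fell on the 8 genes in WT and 45 in KLF10AKO. The library totals behind them were 15537863 to 17499132 reads in WT and 15900731 to 17396282 in KLF10AKO. All 4 WT values lay above all 4 KLF10AKO values for 6 of the 8 members. The same was true of 19.3% of the 31609 genes with at least 1 read, and since the members were picked knowing these values, nothing is read from their count. In bulk tissue, fewer cells of a type and less RNA per cell cannot be told apart.

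Wap had the highest level per kilobase. In WT, replicates 1 to 4 stood at 2.59, 3.52, 1.26 and 4.53 FPKM, and in KLF10AKO at 0, 0, 0.0547 and 0. These values rested on 39, 59, 19 and 67 reads in WT, and the 0.0547 on a single read. The groups did not overlap, and the WT mean was 2.97 ± 1.39 (SD, n = 4) against 0.0137 ± 0.0274 (SD, n = 4). The ratio of the means was 217, with a counting interval of 39.3 to 8805 (95%), and without KLF10AKO replicate 3 no Wap read remained in that group. The protocol in the labels names no molecular identifiers, so this and later intervals cover counting error only. The 19 reads of WT replicate 3 (exact 95% interval 11.4 to 29.7) lay apart from the 67 of replicate 4 (51.9 to 85.1), a difference beyond counting error.

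Csn2, which encodes beta-casein, gave the most reads of any member, 73, 71, 58 and 125 in WT, by replicate number, against 4, 6, 0 and 3 in KLF10AKO. In FPKM these were 0.706, 0.616, 0.558 and 1.23 against 0.0305, 0.0456, 0 and 0.0245. The groups did not overlap, and reads were found in 3 of the 4 KLF10AKO libraries. The means were 0.777 ± 0.307 (SD, n = 4) and 0.0252 ± 0.0190 (SD, n = 4), a ratio of 30.9 with a counting interval of 17.5 to 57.5.

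Csn1s2a, an alpha-S2 casein gene, had 52, 45, 44 and 78 reads in WT, or 0.994, 0.772, 0.837 and 1.52 FPKM. In KLF10AKO it had 0, 0, 0 and 2 reads, the last at 0.0323 FPKM. The WT mean was 1.03 ± 0.337 FPKM (SD, n = 4), and the ratio to KLF10AKO was 127 with a counting interval of 36.1 to 1097, and without KLF10AKO replicate 4 no read remained in that group. Its neighbour Csn1s2b, the other alpha-S2 casein gene, had 12, 13, 10 and 21 reads in WT, or 0.189, 0.184, 0.156 and 0.336 FPKM. It had 0 reads in all 4 KLF10AKO libraries. Against a floor of 3 reads over that group, Csn1s2b was at least 22.5-fold higher in WT.

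Csn1s1, which encodes alpha-S1 casein, had 41, 49, 40 and 76 reads in WT, or 0.439, 0.472, 0.427 and 0.828 FPKM, with replicate 4 well above the other 3. In KLF10AKO it had 2, 0, 2 and 0 reads. The means were 0.542 ± 0.192 (SD, n = 4) and 0.00863 ± 0.00998 FPKM (SD, n = 4), a ratio of 62.7 with a counting interval of 23.9 to 230. With 1 library left out, the ratio ran from 47.0 without KLF10AKO replicate 2 or 4 to 96.2 without KLF10AKO replicate 3. Csn3 had 10, 9, 21 and 33 reads in WT, or 0.161, 0.130, 0.337 and 0.541 FPKM. It had 1, 0, 2 and 3 reads in KLF10AKO. Its ratio of means was 14.6 with a counting interval of 6.42 to 41.3. This was the smallest among the 5 members with reads in both groups that did not overlap. The ratio of Csn3 ran from 10.4 without WT replicate 4 to 22.3 without KLF10AKO replicate 4.

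Lalba did not follow the caseins. It had 8, 1, 2 and 1 reads in WT and 8, 0, 5 and 2 in KLF10AKO, and the groups overlapped. In FPKM these were 0.695, 0.0780, 0.173 and 0.0883 against 0.547, 0, 0.358 and 0.147, and replicate 1 was the highest library of each group. The ratio of WT to KLF10AKO was 0.983, with a counting interval of 0.412 to 2.21. It was 0.430 without WT replicate 1, which holds 8 of the 12 WT reads, and 1.54 without KLF10AKO replicate 1. Ltf had 0, 2, 2 and 1 reads in WT and 0, 0, 1 and 3 in KLF10AKO, a ratio of 1.43 with an interval of 0.324 to 7.59 and of 4.37 without KLF10AKO replicate 4. At this depth, differences in Ltf within the counting interval of 0.324 to 7.59 could not be told from none.

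**Figure D1:**
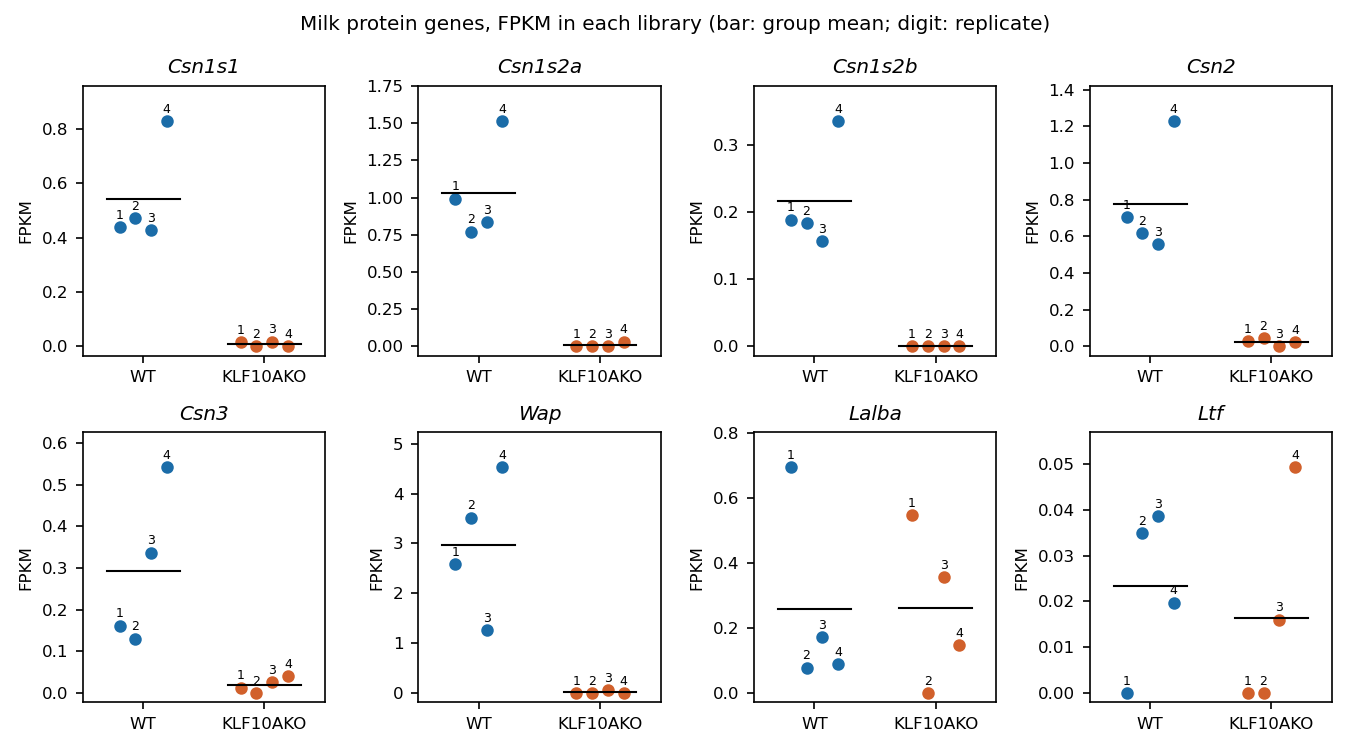
FPKM of each milk protein gene (vertical axes, scaled per gene) in the 4 WT and 4 KLF10AKO libraries, with the replicate number above each point and bars at the group means. WT replicate 4 is the highest library for all 5 caseins and Wap, whose groups do not overlap, while the groups of Lalba and Ltf do.

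Levels of different genes depend on the length they are divided by. The deposited lengths equal the summed exons of all GENCODE M21 transcripts for 8 of 8 members, and these include transcripts that keep introns. For Csn2 the deposited length of 6926 bases covers 98.8% of the gene and is 5.21 times its spliced transcript of 1329 bases. For Wap the lengths are 1008 and 551 bases, and for Lalba both are 771. On the deposited scale Wap was 3.83 times Csn2 in the WT means. Per kilobase of spliced transcript it was 1.34 times Csn2, with 5.44 ± 2.54 for Wap and 4.05 ± 1.60 for Csn2 (SD, n = 4). Next came Csn1s2a at 3.92 ± 1.28, Csn1s1 at 2.40 ± 0.851, Csn1s2b at 1.14 ± 0.426 and Csn3 at 0.761 ± 0.492, followed by Lalba at 0.258 and Ltf at 0.0293. On the spliced scale the ranges of Wap (2.30 to 8.28), Csn2 (2.91 to 6.40) and Csn1s2a (2.94 to 5.77) overlapped, so their order is not beyond the spread. Csn1s1 (1.89 to 3.67) lay above Csn1s2b (0.823 to 1.77) in every library, whereas Csn1s2b and Csn3 (0.339 to 1.41) overlapped. The choice of length moved Csn1s2b from rank 7 to rank 5 and Csn2 from rank 3 to rank 2. It does not touch the ratios between the groups.

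**Figure D2:**
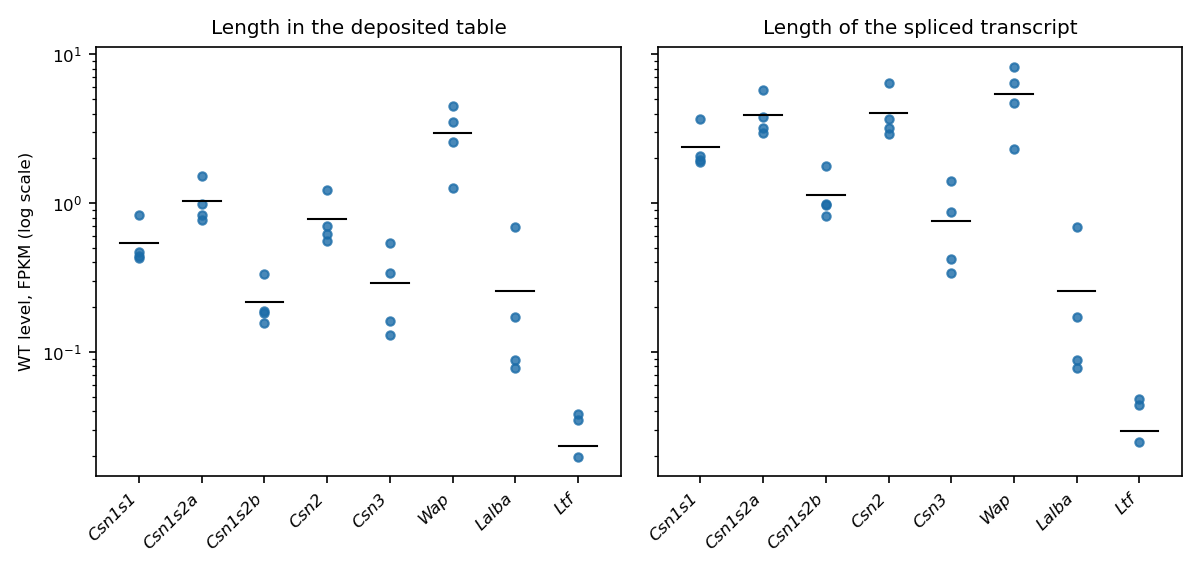
Level of each milk protein gene in the 4 WT libraries (FPKM, log scale), divided by the deposited gene length on the left and by the spliced transcript length on the right, with bars at the means. A library with 0 reads of Ltf is not drawn on the log axis. Wap stands above Csn2 by 3.83 times on the left and by 1.34 times on the right.

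The makeup of the milk reads was compared among the WT libraries. Of the reads on the 5 caseins and Wap, Csn2 took 32.2%, 28.9%, 30.2% and 31.3% in WT replicates 1 to 4. Csn1s1 took between 18.1% and 20.8%, and Csn1s2b took 5.29%, 5.28%, 5.21% and 5.25%. For each of these 3 genes, the share in every WT library lay within that gene's exact 95% intervals in the other WT libraries. Csn1s2a took 18.3% to 22.9%. Wap took 17.2%, 24.0%, 9.90% and 16.8%, and its share in replicate 2 (exact interval 18.8% to 29.8%) lay apart from that in replicate 3 (6.06% to 15.0%). Csn3 took 4.41%, 3.66%, 10.9% and 8.25%, with replicate 3 (6.90% to 16.2%) just clear of replicate 2 (1.69% to 6.83%). WT replicate 3 held the lowest share of Wap and the highest share of Csn3. These intervals cover counting error alone. Over all genes the WT libraries differed by more than that as well, with a mean squared z of 13.8 to 30.6 between pairs. That mean can be driven by genes with many reads. It therefore cannot tell whether a spread beyond counting error is particular to Wap or Csn3. The KLF10AKO libraries had 7, 6, 5 and 8 reads on these genes, too few to give a proportion.

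**Figure D3:**
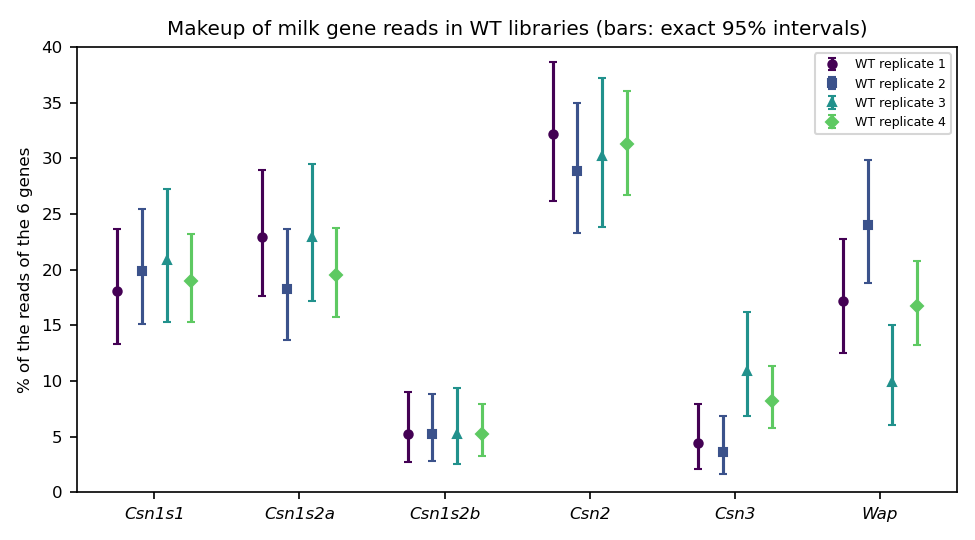
Share of each gene (vertical axis, %) among the reads on the 5 caseins and Wap in each WT library, with exact 95% intervals that cover counting error. Csn2 stays between 28.9% and 32.2%, while Wap runs from 9.90% to 24.0% and Csn3 from 3.66% to 10.9%.

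Genes of the placenta were present in the same libraries as the milk protein genes. A list of 33 trophoblast genes, the prolactin-like hormones, pregnancy-specific glycoproteins and cathepsins of the mouse placenta, held 1220, 1580, 901 and 2363 reads in WT replicates 1 to 4. In KLF10AKO it held 4, 4, 5 and 1. Reads were found in WT alone for 26 of the 33 genes, and the share of all genes with reads in WT alone is not given here. Of the 16 that passed a minimum mean of 0.5 FPKM, 16 fell in KLF10AKO and 0 rose, with a median log2 change of -2.25 (limma), where 34.9% of all genes tested fell. The trophoblast genes that passed did so through WT alone, and an earlier look at these data prompted the list. Its counts are therefore no independent evidence.

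Prl3b1, a placental lactogen that acts on the prolactin receptor, had 171, 247, 114 and 302 reads in WT and 0 in each KLF10AKO library, at least 335-fold higher in WT. Tpbpa, a marker of the spongiotrophoblast, was at least 440-fold higher at 8.40 ± 4.13 FPKM in WT (SD, n = 4), and its relative Tpbpb at least 256-fold at 8.20 ± 3.21 (SD, n = 4). Prl8a9 was at least 154-fold higher at 6.72 ± 2.54 (SD, n = 4). WT replicate 4 was the highest WT library for 23 of the 33 genes, and the share over all genes is not given here.

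In KLF10AKO the caseins had 7, 6, 4 and 8 reads beside 4, 4, 5 and 1 trophoblast reads. In RPM (reads scaled to the library total), the 5 caseins and Wap together ran from 11.7 to 25.7 in WT and from 0.294 to 0.503 in KLF10AKO, and the trophoblast list from 55.1 to 152 and from 0.0629 to 0.294. The part of trophoblast RNA in the milk protein result was not tested.

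**Figure D4:**
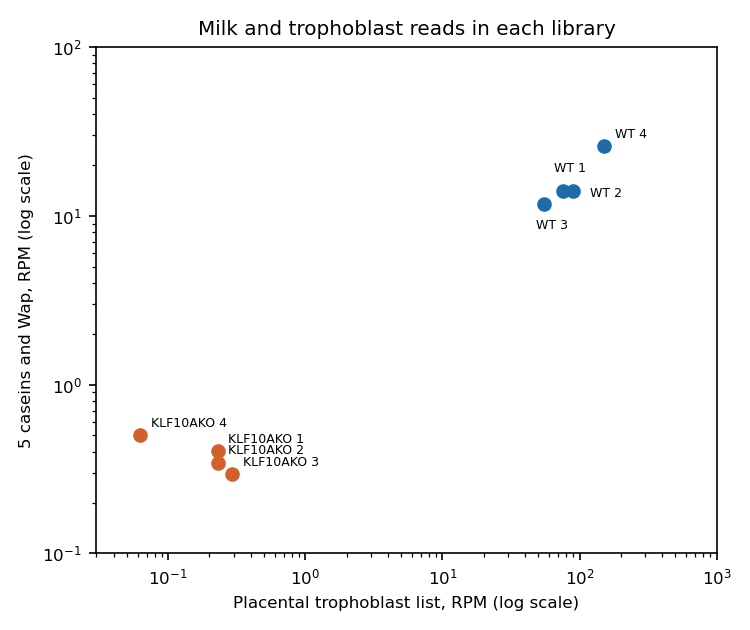
RPM of the 5 caseins and Wap (vertical axis, log scale) against RPM of 33 trophoblast genes (horizontal axis, log scale) in each library. The WT libraries lie between 11.7 and 25.7 on the vertical axis and between 55.1 and 152 on the horizontal one, and WT replicate 4 is highest on both.

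Genes with the most similar profile to a member were sought over all 8 libraries among 12855 protein-coding genes, by the root mean square difference of centred log2(FPKM + 0.5). This was done for Wap and Csn1s2a, the 2 of 8 members that passed the 0.5 FPKM minimum, which they did through WT only. Mean FPKM over the 8 libraries was 1.49 for Wap and 0.519 for Csn1s2a, and the next below the minimum was Csn2 at 0.401. The gap between the groups, which chose the members, dominates this distance, so genes without reads in KLF10AKO come out near by construction and the list is a description only. Closest to Wap were Ctsj, a placental cathepsin (difference 0.12), Psg23, a pregnancy-specific glycoprotein (0.25), and Ceacam14, a relative of the Psg family (0.28). All had 0 reads in KLF10AKO, and in WT they ran from 1.54 to 4.64, from 2.32 to 6.12 and from 1.50 to 5.34 FPKM. Closest to Csn1s2a were Adap2 (0.10), Chrdl1, a secreted BMP antagonist (0.11), and Xdh (0.11). These 3 genes had reads in every library, and their profiles match Csn1s2a on a scale where its KLF10AKO values sit at the added 0.5.

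Markers of the mammary gland itself were sparse. Of 20 luminal markers, 5 passed the minimum. Of these 3 rose and 2 fell, with a median of 0.53, beside 39.4% and 34.9% of all genes tested. When the minimum was dropped, more genes of this list fell than rose. The luminal keratins stayed below the minimum and did not all go the same way. Krt8 had 4, 10, 10 and 15 reads in WT and 1, 2, 0 and 0 in KLF10AKO, and Krt18 had 6, 13, 15 and 15 against 8, 1, 2 and 3. Krt19 had 12, 10, 7 and 7 against 3, 4, 1 and 2. Krt7 had 12, 8, 3 and 2 reads in WT and 17, 14, 9 and 7 in KLF10AKO, and Cdh1, the epithelial cadherin, 8, 4, 0 and 3 against 33, 25, 21 and 31. Elf5, a factor of alveolar and also of trophoblast cells, had 1, 1, 4 and 2 reads in WT and 0 in KLF10AKO. Foxa1 had no read in any library. The list's summed level ran from 12.6 to 13.4 FPKM in WT and from 22.1 to 27.2 in KLF10AKO. Spint2 held the largest part of that sum in both groups, and most of it in KLF10AKO. The members that rose were Spint2, a protease inhibitor (4.58 ± 0.355 to 16.8 ± 2.01 FPKM), Epcam, an epithelial adhesion molecule (0.0470 ± 0.0388 to 1.44 ± 0.354), and the receptor kinase Kit (log2 change 0.53). Trps1 and Esr1 fell, by 0.49 and 0.70 on the log2 scale.

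Of 12 basal markers, 4 passed the minimum. Of these 1 rose and 3 fell, with a median of -0.97, beside 39.4% and 34.9% of all genes tested. Krt5, Krt15 and Krt17 had no read in any library, and Krt14 had 1 read in all. The 3 that fell were smooth muscle and oxytocin receptor genes: Acta2 by 2.24, Mylk by 0.66 and Oxtr by 1.28 on the log2 scale. Dsc3, a desmosomal cadherin, had 0 reads in WT and 6.56 ± 1.12 FPKM in KLF10AKO (SD, n = 4). The basal list summed to 430 to 651 FPKM in WT and 113 to 138 in KLF10AKO, mostly from Acta2. The part of mammary cells in the milk protein result was not tested.

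Components of the prolactin pathway were measured in both groups. The receptor gene Prlr had 17, 26, 12 and 15 reads in WT and 11, 5, 9 and 7 in KLF10AKO, below the minimum for the test. Of 23 regulators of the casein genes, 15 were tested, of which 8 rose and 6 fell. Over all genes tested, 39.4% rose and 34.9% fell. The regulators had a median log2 change of 0.52 where all genes tested had 0.05. Jak2, the kinase bound to the receptor, rose from 11.1 ± 0.593 to 18.3 ± 1.22 FPKM (log2 change 0.69, adjusted p = 1.32e-05 by limma). Stat5b rose by 0.52, and Stat5a, the form that dominates in the mammary gland, had 7.72 ± 0.351 FPKM in WT and 8.31 ± 0.415 in KLF10AKO. The Stat5a log2 change was 0.10 with a 95% interval of -0.03 to 0.23 and did not pass (adjusted p = 0.154 by limma). With TPM or voom scaling Stat5a passed upwards, and with quantile normalization its sign turned.

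Cish, a feedback inhibitor that STAT5 induces, had 844, 993, 686 and 1353 reads in WT and 343, 300, 279 and 294 in KLF10AKO. It fell from 9.89 ± 3.11 to 2.57 ± 0.186 FPKM (log2 change -1.72, adjusted p = 2.51e-05 by limma), and WT replicate 4 was again the highest library. The related inhibitors moved the other way. Socs3 rose from 2.15 ± 0.238 to 14.7 ± 2.45 FPKM, Socs1 from 1.50 ± 0.189 to 12.7 ± 2.38 and Socs2 by 0.82 on the log2 scale. Tnfsf11, the RANK ligand through which progesterone acts in the gland, rose by 2.81 on the log2 scale from 0.0291 ± 0.0245 FPKM, and the differentiation inhibitor Id2 from 7.52 ± 0.792 to 25.9 ± 3.25. Among the other transcription factors of the list, Nr3c1, the glucocorticoid receptor, fell by 0.42, Cebpb by 1.18, Nfia by 0.77 and Nfib by 0.83 on the log2 scale, and Gata3 rose by 1.87. Ehf stayed below the minimum, with 5, 9, 5 and 2 reads in WT and 105, 83, 78 and 109 in KLF10AKO. The call of Nr3c1 was lost with TPM (adjusted p = 0.0700 by limma). Pgr, the progesterone receptor gene, had no read.

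Other milk and lactation genes did not move as a block with the caseins. Of 16, only 5 passed the minimum. Of these 1 rose and 4 fell, with a median of -0.89, beside 39.4% and 34.9% of all genes tested. The riser was Glycam1, a mucin of mouse milk that is also made by high endothelial venules of lymph nodes. It went from 0.427 ± 0.260 to 30.2 ± 4.79 FPKM (log2 change 5.08, adjusted p = 5.21e-08 by limma). Xdh, the xanthine oxidoreductase of the milk fat globule membrane, fell from 40.3 ± 4.48 to 13.8 ± 0.512 FPKM. Mfge8, another globule protein, fell by 0.36, Spp1 (osteopontin) by 0.89 and Trf (transferrin) by 1.22 on the log2 scale. The call of Mfge8 was lost with TPM and with voom. Below the minimum, Wfdc18, a relative of Wap, had 13, 13, 6 and 13 reads in WT and 2, 2, 5 and 0 in KLF10AKO. Lao1, an amino acid oxidase of mouse milk, had 4, 9, 8 and 6 against 4, 0, 1 and 1. Folr1 had 6, 7, 4 and 3 against 1, 2, 3 and 0, without overlap in FPKM. Slc34a2 had 20 reads in all in WT and 9 in KLF10AKO, and its groups overlapped. Other genes below the minimum were higher in KLF10AKO: Pigr, the receptor that carries antibodies into milk, had 4, 7, 7 and 3 reads in WT and 30, 40, 34 and 45 in KLF10AKO, without overlap. The mucin gene Muc1 had 50 and 90 reads in all and the calcium pump gene Atp2b2 30 and 71, and both overlapped between the groups. Btn1a1, the butyrophilin that coats milk fat, had 1 read in all. Without the minimum, more genes of this list fell than rose.

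The enzymes that act on the milk proteins or beside them were all expressed. Of 13 genes of lactose synthesis and casein processing, 3 rose and 6 fell, with a median of -0.28. The shares over all genes tested were 39.4% and 34.9%. B4galt1, the galactosyltransferase with which alpha-lactalbumin pairs, fell from 27.8 ± 4.87 to 20.3 ± 1.57 FPKM (log2 change -0.43, adjusted p = 0.00899 by limma), and that call was lost with TPM, with voom and with KLF10AKO replicate 4 alone in its group. Fam20c, the Golgi kinase that phosphorylates caseins, fell from 21.1 ± 3.40 to 5.82 ± 0.539 FPKM, and its relative Fam20b by 0.75 on the log2 scale. Slc2a1, the glucose transporter GLUT1, rose by 1.16 on the log2 scale.

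**Figure D5:**
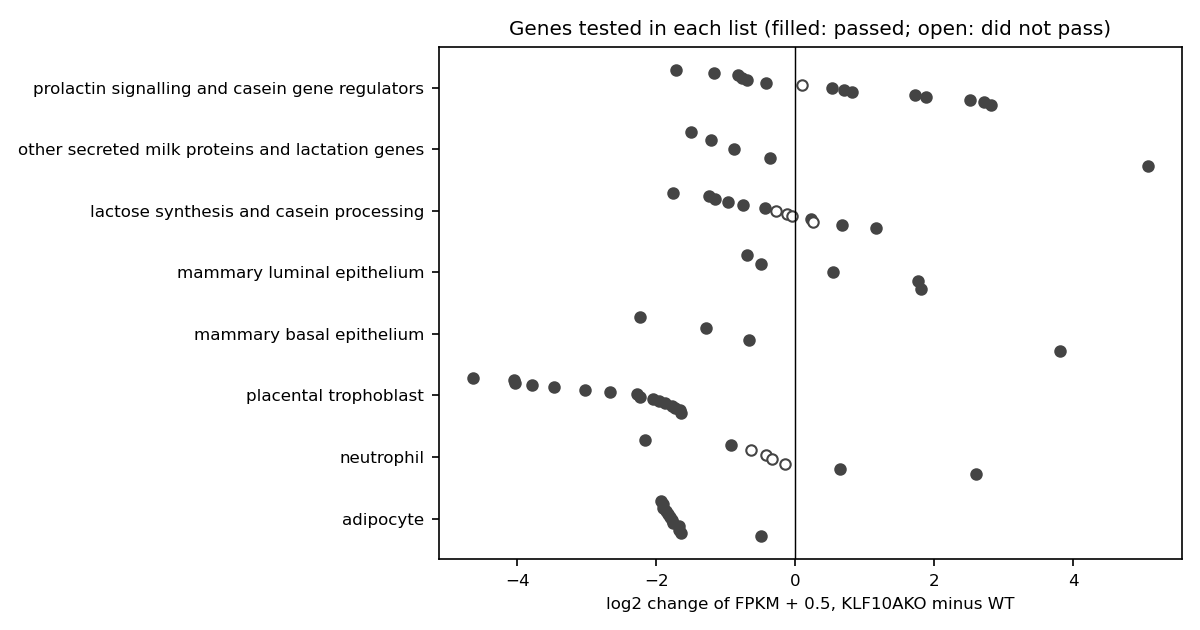
Log2 change of FPKM + 0.5 (horizontal axis, KLF10AKO minus WT) of each gene tested in 8 lists, filled where the gene passed the test. Trophoblast genes all lie below 0, while the regulators of casein genes spread from -1.72 to 2.81.

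The genes around the caseins were nearly all silent, where 31609 of the 54532 genes in the table had at least 1 read. Within 250 kb of the cluster lie 29 other genes of the table, 15 of them protein-coding. Of the 29, 25 had no read in any library, 13 of these protein-coding, and 3 had fewer than 10 reads. The exception was Sult1e1, oestrogen sulfotransferase, with 34, 46, 44 and 17 reads in WT and 2, 8, 10 and 14 in KLF10AKO. It fell from 1.84 ± 0.644 to 0.377 ± 0.231 FPKM (log2 change -1.41, adjusted p = 0.00121 by limma). Among the WT libraries it was lowest in replicate 4, where the 5 caseins and Wap were highest. With KLF10AKO replicate 4 alone in its group, the change was -0.99 and did not pass (adjusted p = 0.112 by limma).

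Other sources of these proteins were looked at by their markers. Of 17 neutrophil genes 8 were tested. Of these 2 rose and 2 fell, beside 39.4% and 34.9% of all genes tested. The log2 changes were 2.59 for the chemokine receptor Cxcr2, 0.64 for Csf3r, -2.16 for S100a8 and -0.93 for Mmp9. Csf3r lost its call with quantile normalization, under which more genes of this list fell than rose. Granule genes of this list differed in level beside the 9 reads of Ltf. Camp, Ngp and Mmp8 had at most 2 reads in a library, whereas Prtn3 had 2.27 ± 0.377 FPKM in WT and 1.99 ± 0.308 in KLF10AKO and Elane 0.820 ± 0.379 and 0.468 ± 0.171 (SD, n = 4), neither of which passed. The neutrophil list summed to 17.4 to 18.7 FPKM in WT and 11.6 to 12.7 in KLF10AKO, and its part in the Ltf values was not tested. Of 12 salivary and lacrimal genes, Amy1 alone passed the minimum. It fell by 1.60 on the log2 scale, while Bpifa2, Pip, Smr2, Smr3a, Dcpp1 and Dcpp2 had no read.

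Relative to the scale of all genes, the split of calls depended on scaling. With the deposited FPKM, 11893 genes were called (74.3% of those tested), of which 53.0% rose. Of the genes called under each other scaling, 63.3% rose with TPM, 62.7% with voom on whole reads and 41.2% with quantile normalization. The median log2 change of all genes moved by 0.18, 0.22 and -0.20 under these 3 scalings.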

How the data were processed

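Poly(A)-selected RNA of iWAT from 4 WT and 4 KLF10AKO samples was sequenced, per the labels' protocols. The authors deposited FPKM and gene lengths. HISAT2 2.0.5, featureCounts 1.5.0-p3, edgeR 3.22.5 and mm10 are named in the submitters' processing notes, without their roles. Neither annotation release nor strand use is given in the sources used here. Whole reads were recovered from the FPKM steps: 100% of values came out whole within 0.01 of a read.

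The members and the gene lists were chosen with earlier results of these data known. Members are described by reads and FPKM, with exact Poisson intervals, exact binomial intervals for shares, and a floor of 3 reads over a group. Other genes were tested with limma 3.58.1 (lmFit, eBayes with trend) in R 4.3.3 on log2(FPKM + 0.5), two-sided, for 16012 genes with mean FPKM of at least 0.5. A fold on this scale understates the change of low genes. Named were all members, up to 4 genes of lowest p per list, the 3 genes of most similar profile to each member above the minimum, neighbours with at least 10 reads, and Klf10. A gene that this rule takes is not reported here. Further genes were chosen after their values were seen, among them Prlr, Jak2, Stat5a, Stat5b, Cish, Socs2, Gata3, Elf5, Esr1, Nr3c1, Nfia, Nfib, Cebpb, B4galt1, Trf and the genes given by reads alone. Length per spliced transcript came from GENCODE M21, and upstream sequence from RefSeq. The procedure was tested on simulated data. Alternatives tried were pseudocounts, filters, TPM, quantile normalization, voom on whole reads, a replicate block and each library left out. KLF10AKO replicate 4 alone in its group (assumed to vary like WT) and the spliced length were added after seeing the data.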

Additional observations from a re-analysis of the deposited data

Results flagged for a closer look

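Within each group of 4 libraries, a value was singled out when its gap to the nearest other library, divided by the group's range, exceeded Dixon's 95% limit. This held for 11 of 170 groups of values. Chance gives about 1 in 20 for continuous values, but the 170 include groups with 0 in every library, which cannot be flagged. Among the milk protein genes, WT replicate 4 stood above the other WT libraries for Csn1s1 at 0.828 FPKM and for the 5 caseins summed at 4.45 FPKM. WT replicate 1 stood apart for Lalba at 0.695 FPKM, from 8 reads. In KLF10AKO the highest library stood apart for Csn1s2a at 0.0323 FPKM (replicate 4, 2 reads) and for Wap at 0.0547 FPKM (replicate 3, 1 read), where the other libraries had none. A group with reads in 1 library alone is flagged by construction. WT replicate 4 was also apart for the trophoblast gene Prl8a9 at 10.5 FPKM, for Ceacam14 at 5.34 FPKM and for the skeletal muscle sum at 219 FPKM. WT replicate 2 was apart for the sum of the sex-linked genes at 60.2 FPKM and was low for Trf at 24.1 FPKM. KLF10AKO replicate 2 was apart for Csf3r at 2.53 FPKM.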

How the results depend on the processing

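The milk protein reads are few, so their log2 differences move with the added constant, and depth limits any statement on Lalba and Ltf. The log2 difference of Csn2 between the groups was -1.25 with 0.5 added, -0.78 with 1 and -2.76 with 0.1. Calls for 61 other named genes under all alternatives kept side and direction in 1007 results. They were lost in 13 (Mfge8, Csf3r, Mylpf, Tnnt3, Tnni2, Atp2a1, Sult1e1, Nr3c1 and B4galt1) and gained in 2, both for Stat5a. Stat5a turned to -0.079 under quantile normalization (adjusted p = 0.242 by limma). The cause of these shifts was not tested.

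Counts over lists moved with the filter by construction, since it sets which genes are tested. With no filter, 2 milk and lactation genes rose and 7 fell, and 5 luminal genes rose and 8 fell. In that fit 26 trophoblast genes fell and 4 neutrophil genes rose, beside 7442 rising and 6182 falling of all 31609 genes tested. With a minimum mean of 2 FPKM, 1 luminal gene rose and 0 fell, and 5 trophoblast genes fell. At that minimum 0 neutrophil genes rose and 1 fell, and 0 casein neighbours fell. Over all 11712 genes then tested, 4781 rose and 4519 fell. With quantile normalization 1 neutrophil gene rose and 6 fell, and with voom 0 muscle genes rose. Over all 16012 genes tested, 4947 rose and 7067 fell with quantile normalization, and 7404 rose and 4409 fell with voom. With KLF10AKO replicate 4 alone in its group, 1 neutrophil gene rose, 4 muscle genes rose and 3 fell, and 0 casein neighbours fell. The cause was not tested.

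With 1 library left out at a time, the genes that rose numbered 5991 to 6269 and those that fell 5307 to 5593. The genes of lactose synthesis and casein processing that rose numbered 2 to 3, the neutrophil genes that fell 2 to 3 and the muscle genes that rose 6 to 9. WT and KLF10AKO samples share replicate numbers, but same-numbered libraries did not deviate together (correlations 0.003 to 0.031, 0 of 4 over 0.1), and 3 of 4 WT libraries correlated best with their own number. With the replicate number as a block, 6220 genes rose and 5506 fell.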
